A study of Mus musculus with 15 samples.

Results

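The genes described here are 10 genes of epithelial cell junctions in the mouse kidney, chosen by name: the cadherins Cdh1, Cdh16 and Cdh2, the adhesion molecule Epcam, the tight junction genes Tjp1 and Ocln, and the claudins Cldn1, Cldn2, Cldn4 and Cldn7. Each was found by its Ensembl identifier among the 54532 gene identifiers of the table, and all 10 passed the filter on low values in every comparison. The kidneys came from 15 male C57BL/6 mice, 8 weeks old at the start, in groups of 5. The control group (C) ate a normal diet. The CKD model group (M) ate 0.25% adenine for 4 weeks, which injures the kidney tubules and leads to fibrosis, and then standard chow up to 8 weeks. The AA group had the same 4 weeks of adenine followed by standard chow and received 30 mg/kg of asiatic acid (AA), a plant triterpene, by gavage each day for the 8 weeks, so it differs from C in both diet and drug. RNA sequencing of kidney tissue addressed how the adenine diet and the drug changed gene expression.

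Epithelial cells of the nephron are held together by junctions. In adherens junctions, cadherins of neighbouring cells bind each other outside the cell and catenins inside it. In tight junctions, claudins and occludin close the gap between cells or leave pores for ions and water, and scaffold proteins such as ZO-1, the product of Tjp1, tie them to actin. The claudins a tubule cell makes set which ions can pass, so they differ from segment to segment. Loss of E-cadherin with gain of N-cadherin is a textbook sign of epithelial cells turning mesenchymal, which is why these genes are often followed in kidney fibrosis.

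Values were FPKM as the authors deposited them, fragments counted on a gene and scaled to its length and to a library-wide divisor. The fragments that the values list summed to between 13650000 and 28880000 a library, of which 53% to 87.2% fell on mitochondrial genes. That share was 53% to 62.5% in C, 64% to 86.8% in M and 69.2% to 87.2% in AA. Fragments outside the mitochondrial genome numbered 6951000 to 13580000 in C, 2078000 to 7143000 in M and 2226000 to 4271000 in AA. The C and AA libraries overlapped in neither measure, and the part of this in the AA vs. C differences was not tested. M mice 1 to 3 stood apart: FPKM was above 0 for 10068 to 12222 genes there and for 18695 to 25460 genes in the 12 other libraries. C mice 1 and 3 were high in some markers of collecting duct principal cells, which are given beside Cdh1 below. The kidney was recognised by its markers: the mean log2(FPKM + 1) of 10 proximal tubule genes had a median of 4.37 in C, 1.51 in M and 2.04 in AA, and none of the 10 was at 0 in all libraries of a group. In bulk RNA, fewer cells of a type and less RNA per cell cannot be told apart. The labels do not say whether mice shared a cage, litter or day, and p-values measure the spread between these mice only.

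On GRCm38 (GENCODE M21), Cdh1 lies at chr8:106603351-106670246 on the plus strand and Cdh16 at chr8:104601911-104624396 on the minus strand. Epcam lies at chr17:87635979-87651129 on the plus strand, Tjp1 at chr7:65296165-65527781 on the minus strand and Ocln at chr13:100496507-100552718 on the minus strand. Of the claudins, Cldn1 lies at chr16:26356642-26371841 on the minus strand, Cldn2 at chrX:139800828-139811386 on the plus strand, Cldn4 at chr5:134945119-134946934 on the minus strand and Cldn7 at chr11:69964779-69967885 on the plus strand. All 10 genes are protein-coding, and each value sums reads over the exons of its gene. At most 1.46% of the 31-base words of any of them occurred in another gene's transcripts.

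RefSeq promoter windows (GRCm38.p6, 250 bases before to 50 after a start) were held for 7 of the 10 genes: Cldn1, Cldn2, Cldn4, Cldn7, Epcam, Ocln and Tjp1. They were searched on both strands for the E-box CAGGTG, the site of the Snail and Zeb repressors. The motif is read as letters only, not as a bound site. Upstream stretches of 3 genes are shown, each of 250 bases up to the base before the start and in the direction of transcription. Capitals mark the E-box. The genes are Cldn4 and Epcam, whose levels moved together across the kidneys (Pearson's r = 0.84), and Cldn1, which had r = -0.54 with Cldn4 and -0.32 with Epcam. The stretches come from chr5:134946935-134947184 (minus strand), chr17:87635729-87635978 (plus strand) and chr16:26371840-26372089 (minus strand).
Cldn4: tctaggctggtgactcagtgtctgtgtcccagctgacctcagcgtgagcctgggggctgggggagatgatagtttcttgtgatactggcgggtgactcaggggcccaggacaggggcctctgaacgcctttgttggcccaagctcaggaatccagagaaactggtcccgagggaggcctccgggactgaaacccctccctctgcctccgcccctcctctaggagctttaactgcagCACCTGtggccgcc
Epcam: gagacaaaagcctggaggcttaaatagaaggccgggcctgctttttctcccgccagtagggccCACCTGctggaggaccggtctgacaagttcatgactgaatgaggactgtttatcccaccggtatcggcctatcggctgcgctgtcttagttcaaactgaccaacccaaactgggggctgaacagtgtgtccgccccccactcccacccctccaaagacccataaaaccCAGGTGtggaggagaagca
Cldn1: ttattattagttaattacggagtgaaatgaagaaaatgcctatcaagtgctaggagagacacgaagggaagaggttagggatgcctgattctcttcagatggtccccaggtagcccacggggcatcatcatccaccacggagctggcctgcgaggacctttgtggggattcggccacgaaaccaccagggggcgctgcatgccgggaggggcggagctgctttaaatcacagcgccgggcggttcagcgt

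The E-box was present in 5 of the 9 windows of these genes, against 20.2% of the 32851 promoter windows of the genome. The 5 belong to 4 of the 7 genes (Cldn4, Cldn7, Epcam and Ocln). The windows of Ocln overlap and share an E-box, so the windows are not independent, and the share per gene was not counted for the genome. In Cldn4 it began 14 bases before the start and again at base 12 of the transcript, and in Epcam 187 and 19 bases before the start. The windows of Cldn1, Cldn2 and Tjp1 held none, and Tjp1 had r = 0.62 with Epcam and 0.65 with Cldn4. These letters are a description and say nothing of what binds there.

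Cdh16 was the most abundant of the 10 genes in every group by its median, with 61.1 FPKM in C, 7.39 in M and 7.42 in AA. In the C group Epcam (median 4.78) and Cdh1 (4.44) followed, then Tjp1 (3.07), Cldn7 (2.66), Cldn2 (2.28), Cldn4 (1.95), Ocln (0.539), Cldn1 (0.525) and Cdh2 (0.248). In the AA group the order after Cdh16 was Epcam (6.62), Cldn2 (5.52), Tjp1 (3.37), Cdh1 (3.01), Cldn1 (2.78), Cdh2 (1.23), Cldn4 (0.809), Cldn7 (0.798) and Ocln (0.631). Of the 27 pairs of neighbours in the 3 orders, the libraries of 26 overlapped. The exception was Cdh16 over Epcam in the C group. Cldn1 and Cldn2 thus stood higher in the order of AA kidneys than in that of C kidneys, and Cldn7 lower.

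**Figure D1:**
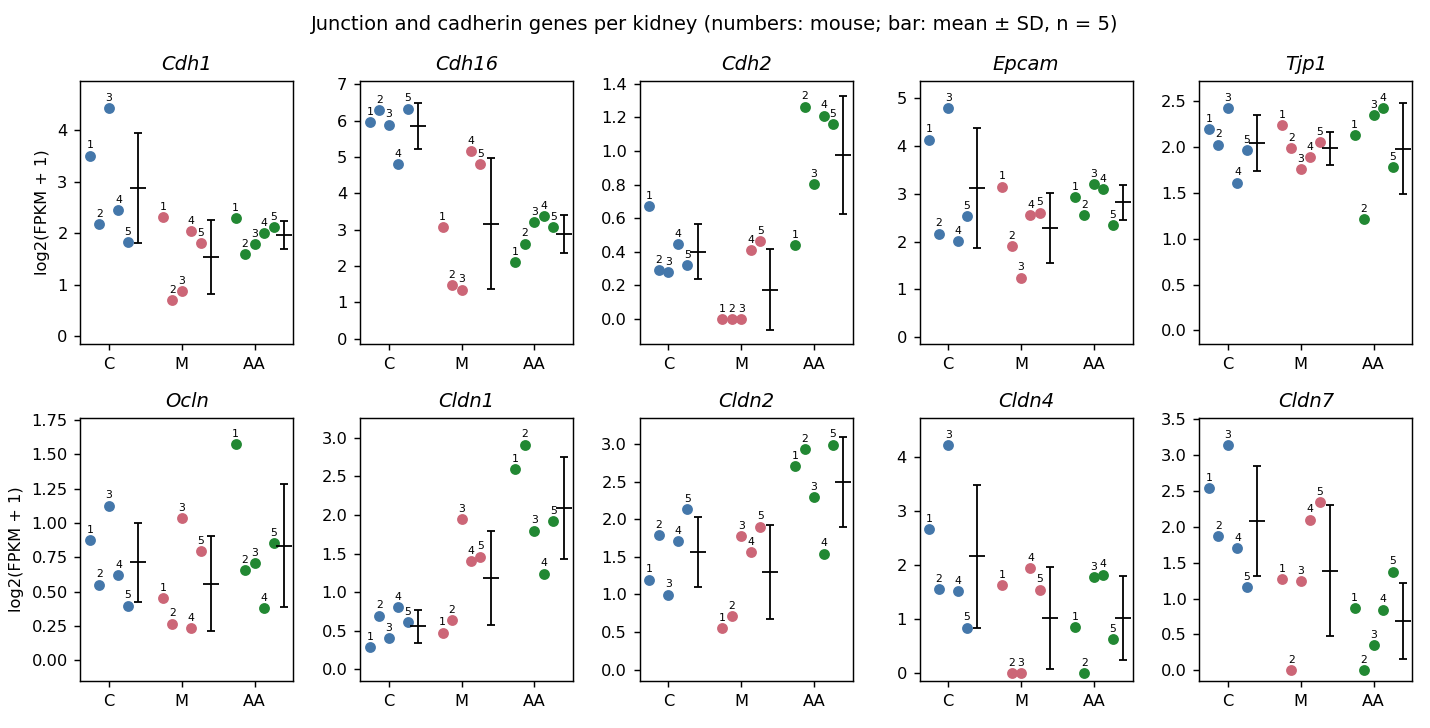
Level of each junction gene as log2(FPKM + 1) (vertical axes, each with its own range) in the C, M and AA groups. Each point is 1 kidney with its mouse number, and the bars show the mean ± SD of 5 kidneys. Cdh16 was lower in all AA kidneys than in any C kidney and Cldn1 was higher, while in the M group mice 2 and 3 stood low for Cdh1, Cdh16 and Cldn4.

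Cdh16 encodes kidney-specific cadherin, a cadherin of the basolateral membrane of tubule cells. Its FPKM was 61.1, 77.4, 58.4, 26.9 and 79.6 in C mice 1 to 5. In M mice 1 to 5 it was 7.39, 1.77, 1.55, 35.1 and 26.8. In AA mice 1 to 5 it was 3.33, 5.15, 8.31, 9.38 and 7.42. Every AA kidney was below every C kidney, whereas the M group fell into low values in mice 1 to 3 and higher values in mice 4 and 5, of which mouse 4 lay within the range of C and mouse 5 just under its lowest kidney. Group means were 60.7 ± 21.1 FPKM in C, 14.5 ± 15.5 in M and 6.72 ± 2.45 in AA (SD, n = 5 each).

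Cdh1 encodes E-cadherin, the main cadherin of epithelial adherens junctions. Its FPKM was 10.4, 3.51, 20.4, 4.44 and 2.54 in C mice 1 to 5. In M mice 1 to 5 it was 3.96, 0.628, 0.837, 3.11 and 2.50. In AA mice 1 to 5 it was 3.89, 2.04, 2.46, 3.01 and 3.37. C mice 1 and 3 were far above the rest, C mice 2 and 5 lay within the AA range with C mouse 4 just above it, and all 3 groups overlapped.

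Cdh2, at chr18:16588877-16809246 on the minus strand, encodes N-cadherin, which neurons and mesenchymal cells use and which proximal tubule cells also make. It overlaps the antisense gene Gm15485, and as the counting is not stated to use strand, reads from both cannot be told apart. Its FPKM was 0.591, 0.222, 0.213, 0.363 and 0.248 in C mice 1 to 5. It was 0.355, 1.40, 0.744, 1.31 and 1.23 in AA mice 1 to 5. It was listed at 0 in M mice 1, 2 and 3 and was 0.330 and 0.377 in M mice 4 and 5. A count of 0 allowed up to 0.0356 FPKM in the shallowest of those 3 libraries (3 fragments, counting error only), which is below every C kidney. AA mice 2 to 5 were above all C and M kidneys, and AA mouse 1 was among the C values.

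Epcam encodes an adhesion molecule of epithelial cells that binds claudin-7 and is strongest in the distal nephron and collecting duct. Its FPKM was 16.6, 3.49, 26.6, 3.03 and 4.78 in C mice 1 to 5. M kidneys ran from 1.37 to 7.86 with a median of 4.86, and AA kidneys from 4.05 to 8.23 with a median of 6.62. C mice 1 and 3 were again above all other kidneys, and the other C mice lay within the M range.

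Tjp1 and Ocln overlapped between all 3 groups. Tjp1, the scaffold ZO-1, was 3.20 ± 0.858 FPKM in C, 2.98 ± 0.510 in M and 3.12 ± 1.26 in AA (SD, n = 5 each). Both its lowest and its highest kidney were in the AA group, with AA mouse 2 lowest at 1.32 FPKM and AA mouse 4 highest at 4.38. Ocln, which encodes occludin, a membrane protein of the tight junction, was 0.668 ± 0.344 FPKM in C, 0.506 ± 0.375 in M and 0.860 ± 0.654 in AA. AA mouse 1 was the highest kidney at 1.98 FPKM.

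Cldn1 encodes claudin-1, a sealing claudin that the kidney makes mainly in the parietal cells of Bowman's capsule. Its FPKM was 0.219, 0.622, 0.323, 0.745 and 0.525 in C mice 1 to 5. In M mice 1 to 5 it was 0.392, 0.554, 2.84, 1.64 and 1.75. In AA mice 1 to 5 it was 5.05, 6.53, 2.48, 1.37 and 2.78. Every AA kidney was above every C kidney, and the M group held both low values, in mice 1 and 2, and values in the AA range.

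Cldn2 encodes claudin-2, which forms the cation and water pores of the proximal tubule. Its FPKM was 1.29, 2.45, 0.996, 2.28 and 3.40 in C mice 1 to 5. In M mice 1 to 5 it was 0.467, 0.633, 2.41, 1.95 and 2.74. In AA mice 1 to 5 it was 5.52, 6.60, 3.91, 1.91 and 6.95. All AA kidneys except mouse 4 were above every C and M kidney.

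Cldn4 and Cldn7 encode claudins of the distal nephron and collecting duct. Cldn4 was 5.37, 1.95, 17.8, 1.87 and 0.790 FPKM in C mice 1 to 5. The M values were 2.09, 0, 0, 2.85 and 1.92 in the same order. In AA mice 1 to 5 it was 0.809, 0, 2.42, 2.54 and 0.547, and a count of 0 allowed up to 0.183 FPKM in AA mouse 2. Cldn7 was 4.83, 2.66, 7.86, 2.26 and 1.23 FPKM in C mice 1 to 5. The M values were 1.42, 0, 1.36, 3.29 and 4.08 in the same order. In AA mice 1 to 5 it was 0.829, 0, 0.274, 0.798 and 1.59. For Cldn7, 4 of the 5 AA kidneys lay below every C kidney and AA mouse 5 above only C mouse 5.

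Differences were tested with limma on log2(FPKM + 1) across all genes of the table, and a gene was called at an adjusted p of at most 0.05 with a log2 fold change of 1 or more, up or down. All fold changes below are on that scale, which understates the change of genes under about 1 FPKM. Between M and C, 0 of the 10 genes were called, where 1.38% of the 21153 genes tested were. At an unadjusted p under 0.05 there were 2, Cdh16 and Cdh1, both with lower values in M, where 16.5% of all genes tested were under it. In all 10 genes the M and C kidneys overlapped, where those of 4.72% of all genes tested did not. Cdh16 had a log2 fold change of -2.68 (SE 0.71, limma adjusted p = 0.0838), with all 5 M kidneys below the C mean. Cdh1 had -1.33 (SE 0.51, limma adjusted p = 0.220), also with all 5 M kidneys below the C mean.

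The other M vs. C differences were -1.14 for Cldn4, -0.84 for Epcam, -0.69 for Cldn7, 0.62 for Cldn1, -0.27 for Cldn2, -0.23 for Cdh2, -0.16 for Ocln and -0.06 for Tjp1. The median over all genes tested was -0.12. Their 95% intervals all spanned 0, from -2.47 to 0.19 for Cldn4 and from -0.61 to 0.50 for Tjp1, so changes of these sizes could not be told from none with these mice. The Cdh16 difference depended on the M mice: with M mice 4 and 5 only, where 0.0662% of all genes were called, it was -0.87 (limma adjusted p = 0.496), and without M mouse 4 it was -3.18 (limma adjusted p = 0.0382) and without M mouse 5 -3.09 (limma adjusted p = 0.0344), both of which were called.

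Between AA and M, 1 of the 10 genes was called, where 12.8% of the 19798 genes tested were, and these were mostly higher in AA (11.7% of all genes). The AA and M kidneys overlapped in all 10 genes, where 13.2% of all genes did not overlap. Cldn2 was higher in AA, with a log2 fold change of 1.19 (SE 0.38, limma adjusted p = 0.0453) and all 5 AA kidneys above the M mean. This call lay at the threshold: it was made in 2 of the 10 fits that left out 1 kidney, those without M mouse 5 or AA mouse 4, and with M mice 4 and 5 only the difference was 0.76 (limma adjusted p = 0.269). It was also lost with centring on library medians (0.68, limma adjusted p = 0.178), with library quality weights (0.87, limma adjusted p = 0.0772) and with voom on recovered fragments (1.27, limma adjusted p = 0.183). A pseudocount of 0.1, TPM, the replicate block and a filter of genes above 0 in any library lost it too. Of all 21 alternatives, 5 kept the call. Without any of the 8 other kidneys (M mice 1 to 4 and AA mice 1, 2, 3 and 5), the limma adjusted p was 0.0575 to 0.103.

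Cdh2 was 0.80 higher (SE 0.22, limma adjusted p = 0.0231) in AA vs. M, under the fold threshold and against an M group with 3 kidneys listed at 0. With M mice 4 and 5 only it was 0.54 higher (limma adjusted p = 0.267). The size depended on the scale: it was 0.28 (limma adjusted p = 0.40) with centring on library medians, and 5.29 (limma adjusted p = 0.00524) and called with voom on recovered fragments. Cdh2 was also called with a pseudocount of 0.1. Cldn1 had 0.91 (SE 0.39, limma adjusted p = 0.125). The remaining differences were 0.54 for Epcam, 0.42 for Cdh1, 0.28 for Ocln, -0.29 for Cdh16, -0.70 for Cldn7 and under 0.01 in size for Tjp1 and Cldn4, where all genes had a median of 0.17.

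The AA vs. M difference of Cdh16 changed with which M mice were used, and that of Cldn7 with both the M mice and the scaling. With M mice 4 and 5 only, 2 genes were called and both were lower in AA, where 8.66% of all genes tested were called and 6.32% were called lower. Cdh16 had -2.10 (limma adjusted p = 0.0113) and Cldn7 had -1.53 (limma adjusted p = 0.0349) there. With all 5 M mice, Cldn7 was called lower in AA with centring on library medians (-1.22, limma adjusted p = 0.0211) and with library quality weights (-1.09, limma adjusted p = 0.0349), against the -0.70 above (limma adjusted p = 0.281). M mice 1 to 3, which held the fewest detected genes, were the low M kidneys for Cdh16, and the part of library quality in this was not tested.

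**Figure D2:**
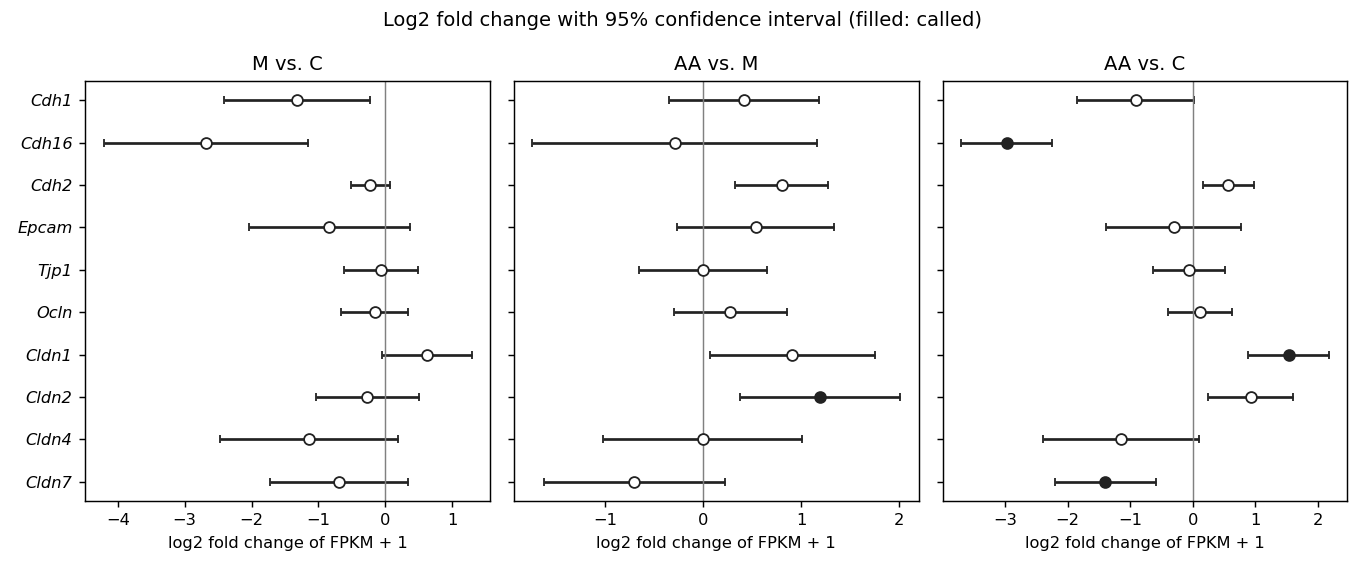
Log2 fold change of FPKM + 1 (horizontal axes) of each gene in each of the 3 comparisons, with 95% confidence intervals from limma and 5 kidneys per group; filled points were called. No gene was called in M vs. C, Cldn2 in AA vs. M, and Cdh16, Cldn1 and Cldn7 in AA vs. C.

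Between AA and C, 3 of the 10 genes were called, 2 lower and 1 higher, where 19.8% of the 21898 genes tested were called (10.2% higher and 9.61% lower). Cdh16 was lower in AA by the widest margin, with a log2 fold change of -2.97 (SE 0.34, limma adjusted p = 0.000209). Cldn7 was lower, with -1.40 (SE 0.37, limma adjusted p = 0.0132). Cldn1 was higher, with 1.53 (SE 0.30, limma adjusted p = 0.00286). Cdh16 and Cldn1 were the 2 genes whose AA and C kidneys did not overlap, where 24% of all genes tested did not.

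Cldn2 was 0.93 higher (SE 0.32, limma adjusted p = 0.0381) and Cdh2 0.57 higher (SE 0.19, limma adjusted p = 0.0335), both under the fold threshold. Without C mouse 5 or AA mouse 4 the Cldn2 difference was 1.07 (limma adjusted p = 0.0338) and 1.16 (limma adjusted p = 0.0112), and it was then called. The remaining AA vs. C values were -1.15 for Cldn4, -0.91 for Cdh1, -0.30 for Epcam, 0.12 for Ocln and -0.06 for Tjp1, where the median of all genes was 0.09. The comparisons share kidneys in pairs, the 5 C kidneys for example serving both M vs. C and AA vs. C, so a gene's differences in these comparisons are not independent.

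C mice 1 and 3 were the highest C kidneys for Cdh1, Epcam, Cldn4 and Cldn7, and also for 4 of 7 markers of collecting duct principal cells (Aqp2, Aqp3, Aqp4 and Fxyd4). Aqp2, the water channel of collecting duct principal cells, was 255 and 437 FPKM in C mice 1 and 3, between 20.6 and 29.6 in the other C mice, and between 1.09 and 7.45 in the M and AA kidneys. Aqp4, of the same cells, was 23.7 and 42.7 FPKM in C mice 1 and 3 and 0.308 to 1.49 in the other C mice. The sodium channel subunit Scnn1b went the other way, with 1.72 and 2.12 FPKM in C mice 1 and 3 and 15.07 in C mouse 2, and Scnn1g and Avpr2 were not highest in C mice 1 and 3 either. Of 6 intercalated cell markers, which belong to the same duct, 0 were highest in both C mice 1 and 3, and their mean log2(FPKM + 1) was 2.34 and 1.81 there and 2.26 to 3.33 in the other C mice. Over the 7 principal cell markers the mean log2(FPKM + 1) was 3.39 and 3.62 in C mice 1 and 3, 1.59 to 2.34 in the other C mice, 0.31 to 1.13 in M and 0.69 to 1.28 in AA, where Avpr2 was at 0 in all 5 kidneys. Urothelial markers were high in C mice 3 and 4, with Upk2 at 14.3 and 10.04 FPKM and up to 2.33 in every other kidney.

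**Figure D3:**
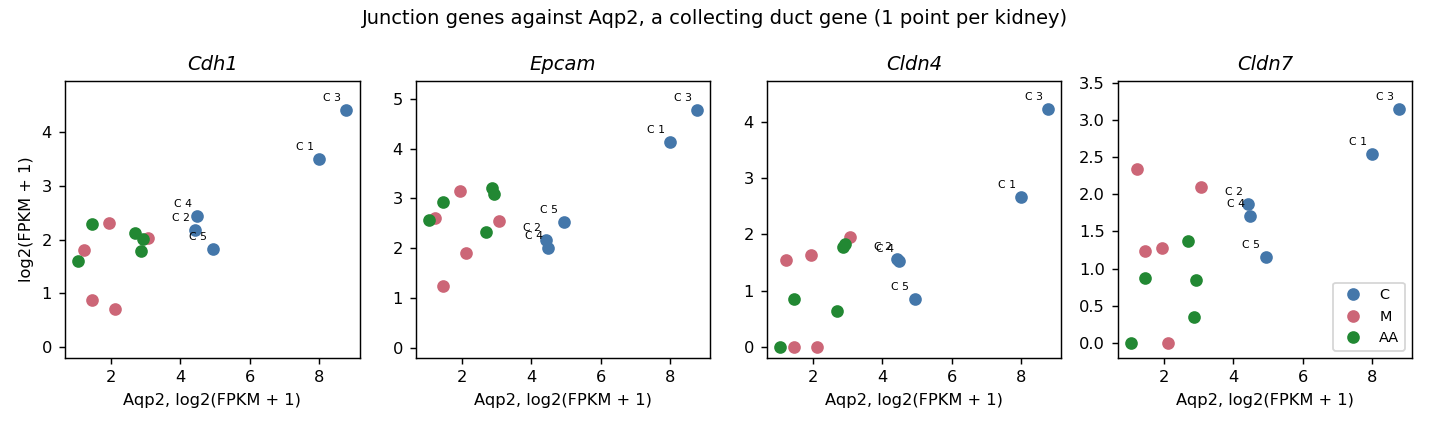
Cdh1, Epcam, Cldn4 and Cldn7 (vertical axes, log2(FPKM + 1)) against Aqp2 (horizontal axes, log2(FPKM + 1)), 1 point per kidney, coloured by group, with the C mice numbered. C mice 1 and 3 lie at the upper right of each panel, at 255 and 437 FPKM of Aqp2, and C mice 2, 4 and 5 lie at or near the heights of the M and AA kidneys.

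With C mice 2, 4 and 5 only, a setting chosen after both the junction genes' values and these markers had been seen, the AA vs. C difference was -0.18 for Cdh1, -0.29 for Cldn4, 0.59 for Epcam and -0.89 for Cldn7, and none of these was called (limma adjusted p = 0.610, 0.632, 0.132 and 0.0720). Cdh16 kept -2.93 (limma adjusted p = 0.00129) and Cldn1 1.39 (limma adjusted p = 0.0193), and both were called, 1 lower (10.9% of all genes were) and 1 higher (9.54% were, and 20.5% in either direction). In M vs. C, where none of the 10 and 1.21% of all genes were called, the same setting gave -2.64 for Cdh16, -0.60 for Cdh1, -0.28 for Cldn4, -0.19 for Cldn7 and 0.05 for Epcam. Which part of the kidney each sample was cut from is not stated, and the part of sampling in these values was not tested.

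Ratios of genes within a kidney, which do not move with the scaling of a library apart from the pseudocount, were compared with exact two-sided permutation tests, 9 in all, for which the smallest possible p is 0.00794. None passed after adjustment, which 1 ratio alone at that smallest p could not have done. An unadjusted p under 0.05 was reached by 2. The log2 ratio of Cdh2 to Cdh1, with 1 FPKM added to each, was -2.47 ± 1.05 in C and -0.99 ± 0.55 in AA (SD, n = 5 each). It was higher by 1.49 in AA vs. C (exact p = 0.0159, adjusted p = 0.0714), in all 5 AA kidneys against the C mean, and by 2.38 with a pseudocount of 0.1 (exact test, adjusted p = 0.0952). Its tests against M are not read, since Cdh2 was listed at 0 in M mice 1 to 3 and the ratio there holds only Cdh1 and the added 1 FPKM. With C mice 2, 4 and 5 only the AA vs. C difference was 0.81 (exact test, adjusted p = 0.268). Fewer kidneys leave fewer splits there and a larger smallest possible p, so this adjusted p cannot show that the difference was gone.

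The log2 ratio of Cdh16 to Cdh1 was 2.98 ± 1.28 in C, 1.62 ± 1.32 in M and 0.92 ± 0.65 in AA (SD, n = 5 each). It was lower by 2.06 in AA vs. C, where the kidneys did not overlap (exact p = 0.00794, adjusted p = 0.0714). The log2 ratio of Cldn2 to Cldn4, a proximal against a distal claudin, was -0.60 ± 1.78 in C, 0.27 ± 1.08 in M and 1.48 ± 1.33 in AA, and the AA vs. C difference of 2.07 had an exact p of 0.0635 (adjusted p = 0.179). Cldn4 was listed at 0 in M mice 2 and 3 and AA mouse 2, where this ratio holds only Cldn2 and the added 1 FPKM, and with a pseudocount of 0.1 the AA vs. C difference was 3.17. The other 4 tests had an exact p from 0.135 to 0.397.

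**Figure D4:**
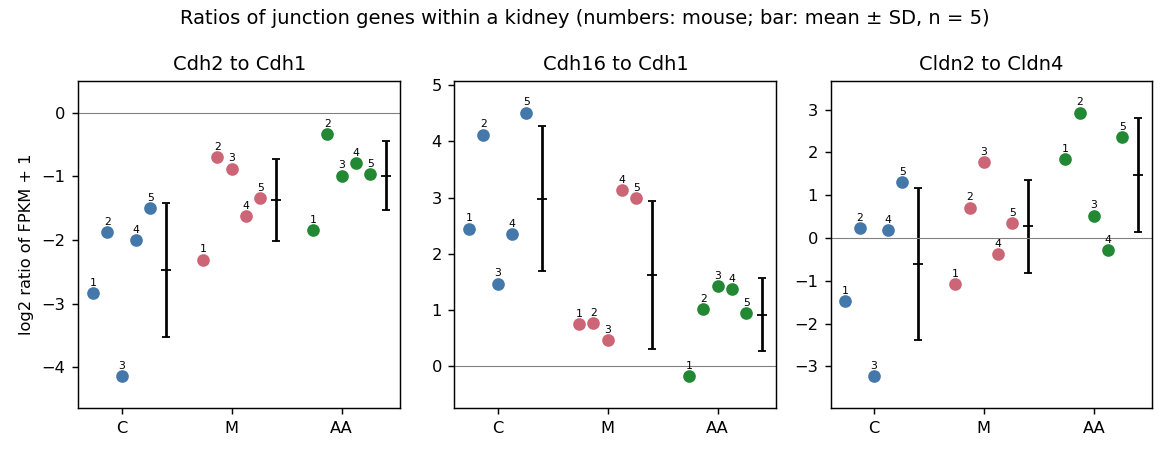
Log2 ratios of FPKM + 1 (vertical axes) of Cdh2 to Cdh1, Cdh16 to Cdh1 and Cldn2 to Cldn4 in the C, M and AA groups, 1 point per kidney with its mouse number and bars for the mean ± SD of 5 kidneys. Cdh2 was listed at 0 in M mice 1 to 3, whose points in the first panel hold only Cdh1. C mouse 3 had the lowest value of all kidneys for Cdh2 to Cdh1 and for Cldn2 to Cldn4, and for Cdh16 to Cdh1 all AA kidneys lie below all C kidneys.

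Across the 15 kidneys, Cdh1, Epcam, Cldn4 and Cldn7 varied together: Pearson's r of log2(FPKM + 1) was 0.89 for Cdh1 and Cldn4, 0.86 for Cdh1 and Epcam, 0.84 for Epcam and Cldn4, 0.77 for Cldn4 and Cldn7 and 0.47 for Epcam and Cldn7. Cldn1 and Cldn2 formed another pair (r = 0.80), and Cldn1 ran against Cdh16 (r = -0.59) and Cldn4 (r = -0.54). These are descriptions over 15 kidneys that differ by group, depth and, for C mice 1 and 3, principal cell markers such as Aqp2. Cdh1 and Epcam had r of 0.85 and 0.69 with the mean of the principal cell markers, and 0.79 and 0.84 after each group's mean was taken out. For Cldn4 these were 0.73 and 0.69, and for Cldn7 0.66 and 0.57. Cldn7 had higher values with the endothelial markers (0.80, and 0.68 after the group means were taken out). Cdh1 also had 0.78 with the urothelial markers, and 0.63 after the group means were taken out. Cdh16 had its highest r with the proximal tubule (0.86) and distal convoluted tubule (0.83) markers, but these fell to 0.62 and 0.48 after the group means were taken out, where that with podocyte markers was 0.64. Cldn1 had 0.75 with the injured tubule markers and 0.26 after the group means were taken out.

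Among 9028 other protein-coding genes with a mean of at least 1 FPKM, the genes most like Cdh1 over the 15 kidneys were Galm (r = 0.93), L1cam (0.91) and Tmem30b (0.91). Those most like Cdh16 were Wnk4, Bckdhb and Mmaa (0.97 each). Those most like Cldn2 were Lrrc8d (0.88), Ipmk (0.87) and Mia2 (0.87). Lrrc8d, a subunit of the volume-regulated anion channel, had a mean of 1.62 FPKM in C, 0.902 in M and 4.80 in AA.

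The wider junction machinery was described with 9 lists of 119 genes, chosen with earlier results of these data known. In M vs. C, 1 of the 104 genes tested was called, where 1.38% of all genes were: Prkcz, the atypical protein kinase C of the polarity complex, was lower in M (log2 fold change -1.71, SE 0.33, limma adjusted p = 0.0285) at 0.588 ± 0.606 FPKM against 4.04 ± 1.39 in C. In AA vs. M, 5 of 102 (4.9%) were called, 3 higher and 2 lower, where 12.8% of all genes were, and in AA vs. C 20 of 105 (19%), 3 higher and 17 lower. The last share is near the 19.8% of all genes tested, and the median log2 fold change of the lists was -0.20 against 0.09 for all genes. In M vs. C the medians were -0.30 and -0.12.

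Of the other claudins, Cldn5, the claudin of endothelial cells, was lower in AA at 0.484 ± 0.499 FPKM against 4.15 ± 2.28 in C (log2 fold change -1.73, limma adjusted p = 0.00357) and 3.85 ± 2.83 in M (-1.53, limma adjusted p = 0.0308). It was the 1 claudin called among the 10 tested in AA vs. C and the 9 tested in AA vs. M. Endothelial markers were also lower in AA than in C: their mean log2(FPKM + 1) was 1.90 to 2.43 in C, 1.06 to 2.16 in M and 1.24 to 1.87 in AA, none of the 7 was at 0 throughout a group, and their part in this result was not tested. Cldn10, a pore-forming claudin of the proximal tubule and thick ascending limb, was 7.93 ± 2.14 FPKM in C, 2.75 ± 2.81 in M and 3.56 ± 1.03 in AA, with limma adjusted p = 0.159 in M vs. C and 0.00954 for AA vs. C, where its fold change of -0.97 stayed under the threshold.

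Among 18 tight junction scaffolds and tricellular proteins, Tjp3, which encodes ZO-3, was lower in AA vs. C (-2.0, limma adjusted p = 0.00176) with 8.39 ± 3.49 FPKM in C, 3.22 ± 3.41 in M and 1.31 ± 0.809 in AA. Its relative Tjp1 had -0.06 in the same comparison. In M vs. C no gene of this list was called; Cgnl1 (-1.07), Cgn (-1.13) and Tjp3 (-1.47) had the lowest unadjusted p (limma adjusted p = 0.166, 0.209 and 0.215). Of 15 catenins and adherens junction proteins, Afdn, the afadin that ties nectins to actin, was lower in AA vs. C (-1.35, limma adjusted p = 0.00249) and in AA vs. M (-1.05, limma adjusted p = 0.0323), and its AA kidneys overlapped neither the C nor the M kidneys.

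Of the desmosome proteins, 3 of 9 tested were lower in AA vs. C, where 9.61% of all genes were: the plakophilins Pkp2 (-1.68) and Pkp3 (-1.76) and envoplakin, Evpl (-1.50), with limma adjusted p = 0.000869, 0.000562 and 0.00401. Of 13 other cadherins tested in AA vs. C, Cdh6, the cadherin of the developing proximal tubule, was higher in AA (1.33, limma adjusted p = 0.00209) and also in AA vs. M (1.20, limma adjusted p = 0.0478). Its FPKM was 0, 0 and 0.253 in M mice 1 to 3, the libraries with the fewest detected genes, but 1.51 and 2.37 in M mice 4 and 5, against 1.69 to 4.65 in AA. Cdh11, a mesenchymal cadherin, was higher at 14.6 ± 3.83 FPKM in AA against 3.73 ± 1.43 in C (1.75, limma adjusted p = 0.00107). Cdhr5, a cadherin of brush border microvilli, was lower at 1.89 ± 1.13 FPKM in AA against 18.0 ± 9.08 in C (-2.67, limma adjusted p = 0.000650). The mean log2(FPKM + 1) of 7 fibroblast markers was 3.05 to 3.95 in C and 4.70 to 5.39 in AA. In M it was 3.53 to 5.42. Of these markers Col1a1, Col1a2, Col3a1, Pdgfrb and Dcn were called higher in AA vs. C. Acta2 went the other way from Cdh11, with means of 28.9 FPKM in C, 24.9 in M and 19.2 in AA, and was not called. Postn had 0.639, 2.63 and 1.35 and Dcn 14.7, 80.6 and 60.3, both highest in M. The part of these markers in the Cdh11 values was not tested.

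Of 15 polarity proteins, 4 were lower in AA vs. C, against the same 9.61% of all genes: Scrib (-2.10), Llgl2 (-2.0), Crb3 (-1.89) and Prkcz (-1.54), with limma adjusted p from 0.000225 to 0.00140. Among the epithelial transcription and splicing factors, Esrp2 (-2.71), Esrp1 (-1.29) and Elf3 (-1.11) were lower in AA vs. C and Klf5 (1.40) was higher, with limma adjusted p = 0.000209, 0.00145, 0.0498 and 0.0188. Elf3 was 7.54 and 13.2 FPKM in C mice 1 and 3 but 1.78 to 3.52 in the other C mice, against 0.629 to 2.20 in AA. In AA vs. M, Klf5 (1.88, limma adjusted p = 0.00739) and Grhl2 (1.09, limma adjusted p = 0.0290) were higher in AA, and Grhl2, a grainyhead factor of epithelial cells, was 2.00 ± 0.403 FPKM in AA and 0.499 ± 0.620 in M. Grhl2 was 0, 0 and 0.171 FPKM in M mice 1 to 3 but 1.00 and 1.32 in M mice 4 and 5, near the lowest AA kidney at 1.46.

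Of 9 factors of the epithelial-mesenchymal transition, 0 were called by limma in any comparison. At an unadjusted p under 0.05 there were 3 of 9 tested in M vs. C, 1 of 9 in AA vs. M and 5 of 8 in AA vs. C, where 16.5%, 32.1% and 46.8% of all genes were. Zeb2 (0.88), Snai1 (0.93) and Prrx1 (0.66) had the lowest p in AA vs. C (limma adjusted p = 0.00380, 0.00823 and 0.02), under the fold threshold, and in M vs. C Zeb2 (0.81), Twist2 (0.55) and Snai2 (0.64) had limma adjusted p = 0.164, 0.182 and 0.303. Zeb2 is also expressed by macrophages, whose 7 markers had a mean log2(FPKM + 1) of 1.57 to 3.46 in C, 3.87 to 4.69 in M and 3.18 to 3.53 in AA, and their part in the Zeb2 values was not tested. Of these markers Lyz2, Ctss, C1qa and C1qb were called higher in AA vs. C, but Csf1r lower. Of 5 keratins of simple epithelia, Krt7 (-2.19, limma adjusted p = 0.000597) and Krt18 (-1.39, limma adjusted p = 0.0450) were lower in AA vs. C, where 9.61% of all genes were. Krt18 was 32.65, 60.6 and 25.9 FPKM in C mice 1, 3 and 4. In C mice 2 and 5 it was 7.08 and 9.46, within the AA range of 4.88 to 10.52.

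Markers of the tubule segments that make these junctions were summarized in the same kidneys. The group medians of the mean log2(FPKM + 1) in C, M and AA were 3.78, 2.74 and 3.01 for the thick ascending limb, 3.17, 1.29 and 1.48 for the distal convoluted tubule and 2.34, 1.17 and 1.73 for intercalated cells. Markers of injured tubule had medians of 1.81, 2.78 and 3.21, and those of podocytes 1.75, 0.995 and 1.46. For lymphocytes they were 0.491, 0.239 and 0.897, for urothelium 1.28, 0.205 and 0.623, and for genes of liver, muscle or blood that can be carried over 1.64, 1.21 and 1.07. Markers within a list could differ: in AA vs. C, Wt1 was called higher and Nphs1 lower among podocyte markers. Among lymphocyte markers Cd3e and Cd3g were called higher and Cd79b lower. Cd79b was at 0 in all AA kidneys and the urothelial Upk3a in all M kidneys. Slc34a1, the phosphate transporter of the proximal tubule, was called lower than in C both in M (-5.66, limma adjusted p = 0.0155) and in AA (-5.48, limma adjusted p = 0.000133). It was picked after its values were seen: the median log2 fold change of the 10 proximal tubule markers was -2.86 in M and -2.69 in AA. Some tubule markers moved less, with means in C, M and AA of 14.4, 8.16 and 11.8 FPKM for Aqp1 and 30.2, 24.7 and 32.4 for Umod. The part of these segment levels in the Cdh16, Cldn7 and Cldn1 values was not tested.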

How the data were processed

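RNA from 1 kidney each of 15 mice was read as poly-A RNA in paired ends of 150 bases. Per the labels and the study's methods, the authors trimmed reads (fastp), aligned them to mm10 with HISAT2 2.0.5, counted them with featureCounts 1.5.0-p3 and deposited FPKM per gene and kidney; the annotation is not given in the sources used here. From the values, whole fragments were recovered with the exon lengths of GENCODE M21 (97.9% to 99% of low values, up to 20 fragments, within 0.05 of a whole number), as the smallest whole numbers the values allow. They show that the deposited FPKM were not divided by library totals: the divisor was 0.518 to 2.30 times the listed fragments, but 0.953 to 1.04 times the median-of-ratios size factor over 7206 genes, up to a common constant. The Epcam length behind the values (2040 bases) differs from that of GENCODE M21 (2195). Of the identifiers, 37 were not in GENCODE M21. Intervals and limits from counts cover counting error only.

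Comparisons used limma 3.58.1 in R 4.3.3 (lmFit, then eBayes with trend) on log2(FPKM + 1). Each fit held the 10 libraries of its 2 groups and genes above 0 FPKM in at least 5 of them, with Benjamini-Hochberg adjustment over all genes tested. The authors' DESeq2 test needs counts and was replaced for that reason; 95% intervals are limma's. The ratios used exact permutation tests adjusted over 9 tests. The other steps ran in Python 3.11.15 (scipy 1.17.1, numpy 2.4.6, pandas 2.3.3; plots with matplotlib 3.10.9). The fit was tested on data simulated from the mean levels of the C libraries, with the same spread for all genes and kidneys. That test does not cover groups that differ in spread, nor an M group split as mice 1 to 3 and mice 4 and 5 were.

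The 10 genes, the 9 junction lists and the 13 marker lists were chosen with earlier results of these data known. Of the lists, called genes are named or, where none was called, up to 3 with the lowest unadjusted p; 1 called gene is not reported here. Aqp2, Aqp4, Scnn1b, Upk2, Slc34a1, Cldn10, Lrrc8d, Acta2, Postn, Dcn and M or C mice singled out were chosen after their values were seen. Mouse numbers occur in each group. The alternatives were 12 other settings (pseudocount, filters, scalings, 1 fit of all libraries, a replicate block, quality weights, limma voom on recovered fragments, M mice 4 and 5 only and C mice 2, 4 and 5 only, the last added after the data were seen) and each library left out in turn. Urine, blood, histology, microbiota and metabolite data were not analysed here.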

Additional observations from a re-analysis of the deposited data

Results flagged for a closer look

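Of 39 sets of 5 kidneys tested for a value far from the others (13 measures in 3 groups), 1 was flagged: Cdh16 in C mouse 4, the lowest of its group at 4.80 on the log2(FPKM + 1) scale, where the other C mice were at 5.89 to 6.33. Chance flags about 1 in 20 such sets. C mouse 4 also held 10.04 FPKM of Upk2, a urothelial gene. Without it Cdh16 was called in AA vs. C as before.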

How the results depend on the processing

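Of 633 fold changes of the 10 genes recomputed under alternatives, 555 kept their direction and their side of the threshold, 17 lost a call, 19 gained one and 42 changed sign, none of the last called in either form. Of the 17 lost calls, 16 were that of Cldn2 in AA vs. M, which 5 of 21 alternatives kept. Cdh16 (-4.08 to -2.78, limma adjusted p from 2.32e-05 to 0.00376) and Cldn1 (1.13 to 2.74, limma adjusted p from 0.00144 to 0.0193) stayed called in AA vs. C under all 21 alternatives run. Genes called in M vs. C numbered 1 with TPM and 1 with all 15 libraries in 1 fit, and 0 to 1 with a library left out. In AA vs. M they numbered 0 with genes above 0 in any library, 0 with TPM, 0 with the replicate block, 2 with M mice 4 and 5 only and 0 to 1 with a library left out. They also numbered 1 with centring and 1 with quality weights, but there the gene was Cldn7 (-1.22 and -1.09) and not Cldn2. With voom and with a pseudocount of 0.1 they numbered 1 each, and the gene was Cdh2 (5.29 with voom). In AA vs. C they numbered 5 with a pseudocount of 0.1, 5 with TPM and 5 with voom, and 3 to 4 with a library left out.

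Sign changes were all of uncalled values. In M vs. C, centring on library medians gave 0.14 (Cdh2), 0.20 (Ocln), 0.30 (Tjp1) and 0.094 (Cldn2), M mice 4 and 5 only gave 0.036 (Cdh2), 0.16 (Cldn2) and 0.14 (Cldn7), C mice 2, 4 and 5 only gave 0.054 (Epcam), 0.033 (Ocln) and 0.12 (Tjp1), and equal fragments outside the mitochondrial genome gave 0.087 (Tjp1). In AA vs. M, centring gave -0.10 (Cdh1) and -0.24 (Ocln), a pseudocount of 0.1 gave 0.32 (Cldn4), equal fragments gave 0.0014 (Cldn4), voom gave 0.82 (Cldn4) and 0.068 (Tjp1), quality weights gave 0.14 (Tjp1) and M mice 4 and 5 only gave 0.010 (Tjp1). In AA vs. C, C mice 2, 4 and 5 only gave 0.59 (Epcam) and 0.11 (Tjp1), TPM gave -0.48 (Ocln), centring gave -0.034 (Ocln), equal fragments gave 0.025 (Tjp1) and quality weights gave 0.043 (Tjp1). Libraries left out gave ranges across 0: in M vs. C -0.17 to 0.036 for Tjp1, in AA vs. M -0.75 to 0.21 for Cdh16, -0.12 to 0.19 for Tjp1 and -0.26 to 0.25 for Cldn4, and in AA vs. C -0.58 to 0.12 for Epcam, -0.065 to 0.23 for Ocln and -0.18 to 0.13 for Tjp1. Of the ratios, Cdh16 to Cdh1 in M vs. C was 0.080 with M mice 4 and 5 only and Cldn2 to Cldn4 in M vs. C was -0.30 with C mice 2, 4 and 5 only. The cause was not tested.

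Scaling moved the median log2 fold change of all genes from -0.12 to -0.58 (TPM) or 0.24 (centring) in M vs. C, from 0.17 to -0.35 (centring) in AA vs. M and from 0.09 to -0.39 (TPM) in AA vs. C. Over all genes, M vs. C called 291 (57 higher, 234 lower), but 1609 with TPM (31 and 1578), 339 with centring (132 and 207), 786 with all libraries, 152 with the block, 188 with quality weights, 448 with a mean FPKM of at least 1, 33 with genes above 0 in any library, 14 with M mice 4 and 5 only and 1 to 766 with a library left out. AA vs. M called 2533 (2321 and 212), but 2813 with centring (1213 and 1600), 422 with TPM, 4007 with voom and 1715 with M mice 4 and 5 only. AA vs. C called 4346 (2241 and 2105), but 6785 with TPM (862 and 5923), 4407 with centring (1769 and 2638), 7474 with a pseudocount of 0.1 and 7729 with voom. Genes of the 9 lists called ran from 0 to 12, 0 to 16 and 18 to 43 in the 3 comparisons.

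Same-numbered mice showed little common deviation (r from -0.127 to 0.218, the best match in 2, 0 and 1 of 5 mice in the 3 comparisons). With 5 mice per group this cannot exclude that mice of a number shared a cage, litter or day. With the replicate block the Cldn2 call of AA vs. M was lost (limma adjusted p = 0.0766) and no other call of the 10 genes changed. For the ratios the block test flips the signs of 5 differences. That allows too few patterns for any ratio to pass, so it decides nothing. Depth limited genes under about 1 FPKM most: 3 fragments were worth up to 0.183 FPKM for Cldn4.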
